A study of Mus musculus with 22 samples.

Results

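The complement components and regulators C3, C4b, C1ra, C2, Cfb, Cfi, Serping1, Cd55 and Cd59a were followed in FE1 cells exposed to Mitsui7, a multi-walled carbon nanotube (MWCNT). The genes were chosen by name, with earlier results of these data known, as those whose probe accession maps to 1 of these symbols. All 9 were on the array, through 12 probes, among 20018 named genes. FE1 is an epithelial cell line grown from the lung of the Muta Mouse, a transgenic mouse with a bacterial reporter gene, so all arrays come from 1 cell line. Control cells were kept in medium with no particles (0 µg/ml, n = 5 arrays), and exposed cells received 12.5 µg/ml (low dose, n = 6), 25 µg/ml (medium dose, n = 5) or 100 µg/ml (high dose, n = 6) for 24 h. The medium of every group, controls included, held fetal bovine serum, antibiotics and murine epidermal growth factor. On each 2-colour array the FE1 sample carried Cy5 and Universal Mouse Reference RNA, a pool from mouse cell lines, carried Cy3, with no dye swap. Values are log2 ratios of sample to reference, so 0 means the same signal as the reference pool and a difference of 1 means a 2-fold difference.

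Complement is a cascade of plasma and cell surface proteins that marks surfaces for removal. In the classical pathway, the protease C1r of the C1 complex activates the protease C1s, which cleaves C4 and then C2. The products form an enzyme that cleaves C3, the point at which all complement pathways meet. Factor B, encoded by Cfb, takes the place of C2 in the alternative pathway. Regulators hold the cascade in check: Serping1 encodes the inhibitor of C1r and C1s, Cd55 speeds the decay of the enzymes that cleave C3, factor I (Cfi) inactivates C3 and C4 fragments, and Cd59a blocks the final membrane attack complex. Most complement protein is made by the liver, while lung epithelial cells make several components locally.

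The promoters of the 3 genes that fell below control at every dose are shown first. Whether these sequences have a part in the falls was not tested. Of the 9 genes, 4 had a promoter in the RefSeq table used here (C3, C1ra, Cd55 and Cd59a, build GRCm38.p6). Each line gives the 250 bases before the annotated start, read 5′ to 3′ on the strand of the gene, with capitals at matches on either strand to any of 9 motifs. The C3 promoter lies at chr17:57228137-57228386 on the minus strand, that of C1ra at chr6:124512371-124512620 on the plus strand, and that of Cd55 at chr1:130462745-130462994 on the minus strand.
C3: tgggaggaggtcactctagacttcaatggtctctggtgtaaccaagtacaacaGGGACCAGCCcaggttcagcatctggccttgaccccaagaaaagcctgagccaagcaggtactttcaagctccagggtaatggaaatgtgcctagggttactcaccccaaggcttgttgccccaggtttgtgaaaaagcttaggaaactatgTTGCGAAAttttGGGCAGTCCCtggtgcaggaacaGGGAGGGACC
C1ra: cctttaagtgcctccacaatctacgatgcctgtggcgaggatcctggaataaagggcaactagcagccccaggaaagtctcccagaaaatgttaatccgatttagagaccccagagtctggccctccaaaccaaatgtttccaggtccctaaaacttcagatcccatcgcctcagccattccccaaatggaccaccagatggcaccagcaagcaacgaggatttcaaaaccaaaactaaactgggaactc
Cd55: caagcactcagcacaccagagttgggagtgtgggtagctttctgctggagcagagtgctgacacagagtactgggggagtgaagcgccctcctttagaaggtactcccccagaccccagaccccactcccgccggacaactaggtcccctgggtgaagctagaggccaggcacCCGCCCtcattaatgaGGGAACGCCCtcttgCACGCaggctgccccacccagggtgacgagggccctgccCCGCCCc
The C3 window held 1 C/EBP match (TTGCNNAA, at -45 to -38 from the start) and 3 NF-kappaB matches (GGGA and CC with any 4 bases between them), the nearest at -10 to -1. These letters occurred in 9.56% and 17.6% of the 32851 distinct promoter windows of the same length. The Cd55 window held 1 NF-kappaB match at -61 to -52, 1 match to the xenobiotic response core (GCGTG, in 28.2% of windows) and 2 GC boxes (GGGCGG, in 32.7%). The C1ra window held none of the 9 motifs, which also included AP-1 (TGANTCA, 6.75%), STAT (TTCNNNGAA, 7.02%), ISRE (GAAA repeated after any 2 bases, 2.98%), the TATA box (12.4%, letters TATAAA) and CCAAT (33.8%). The Cd59a window, not printed here, held 1 ISRE match. No pair of motif matches overlapped in the windows of C3 and Cd55. A match describes letters only, and binding was not measured. The 3 promoters thus had no motif of this set in common.

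Arrays were described by their signal, since intensities have no read depth: between 23688 and 39139 of 55681 probes were detected per array, where detected means that Cy5 exceeded what negative control spots gave (their trimmed mean and 3 trimmed SDs). Of the 22 arrays, 2 correlated below 0 with the others of their own group. Over the 2000 most variable probes, low dose replicate 1 correlated at 0.659 with the other medium dose arrays and at -0.412 with the other low dose arrays. Medium dose replicate 2 correlated at 0.211 with low dose arrays and at -0.325 with the other medium dose arrays. Some further arrays were nearer to another group than to their own. Low dose replicate 2 correlated at 0.298 with control and at 0.0431 with the other low dose arrays. Medium dose replicates 1, 3 and 5 correlated most with high dose arrays, and high dose replicate 6 with medium dose arrays. Labels were kept as given. The results are also stated without low dose replicate 1 and medium dose replicate 2, and with the labels of these arrays exchanged. The epithelial label was set against its markers. Of 8 epithelial markers, E-cadherin (Cdh1) was detected on 0 of 22 arrays, Ocln on 5 and Epcam on 10. Cldn4 was detected on 16 arrays and Krt19 on 21. Keratin genes Krt7, Krt8 and Krt18 were detected on all 22. In control cells their mean log2 ratios against the reference pool were -0.31, -4.35 and -5.62. Of 7 alveolar type II markers, Abca3 and Lamp3 were detected on all 22 arrays, Sftpc on 17, Sftpd on 16 and Sftpb on 3, and Sftpa1 and Nkx2-1 on 0. Of 5 alveolar type I markers, Pdpn, Hopx and Cav1 were detected on all 22 arrays, Aqp5 on 20 and Ager on 12.

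Of the 9 genes, 3 fell at each dose and 0 rose, and no further gene had an unadjusted limma p under 0.05 against control. C1ra, C3 and Cd55 were lower than control at 12.5, 25 and 100 µg/ml, by 1.73- to 4.83-fold. Among all detected genes, 3.06%, 4.68% and 6.45% were called lower at the low, medium and high dose, and 2.22%, 4.27% and 5.47% higher. A gene was called with a limma adjusted p of at most 0.05 over all probes, a difference of 1.5-fold or more, and detection on 4 or more arrays in either group compared. The 7 detected genes had a median log2 change of -0.25 at the low, -0.31 at the medium and -0.33 at the high dose. At each dose this median is the value of Cd59a, which was not called, so it does not show a shift of the whole set. With Cfb and Cfi included, the median of the 9 genes was -0.06, -0.17 and -0.23. The median over all detected genes lay within 0.01 of 0, after loess had centred the ratios of each array. C4b, C2, Serping1 and Cd59a were measured but not called at any dose, and Cfb and Cfi gave no signal well above background. In bulk RNA, fewer cells that make a transcript and less transcript per cell cannot be told apart.

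**Figure D1:**
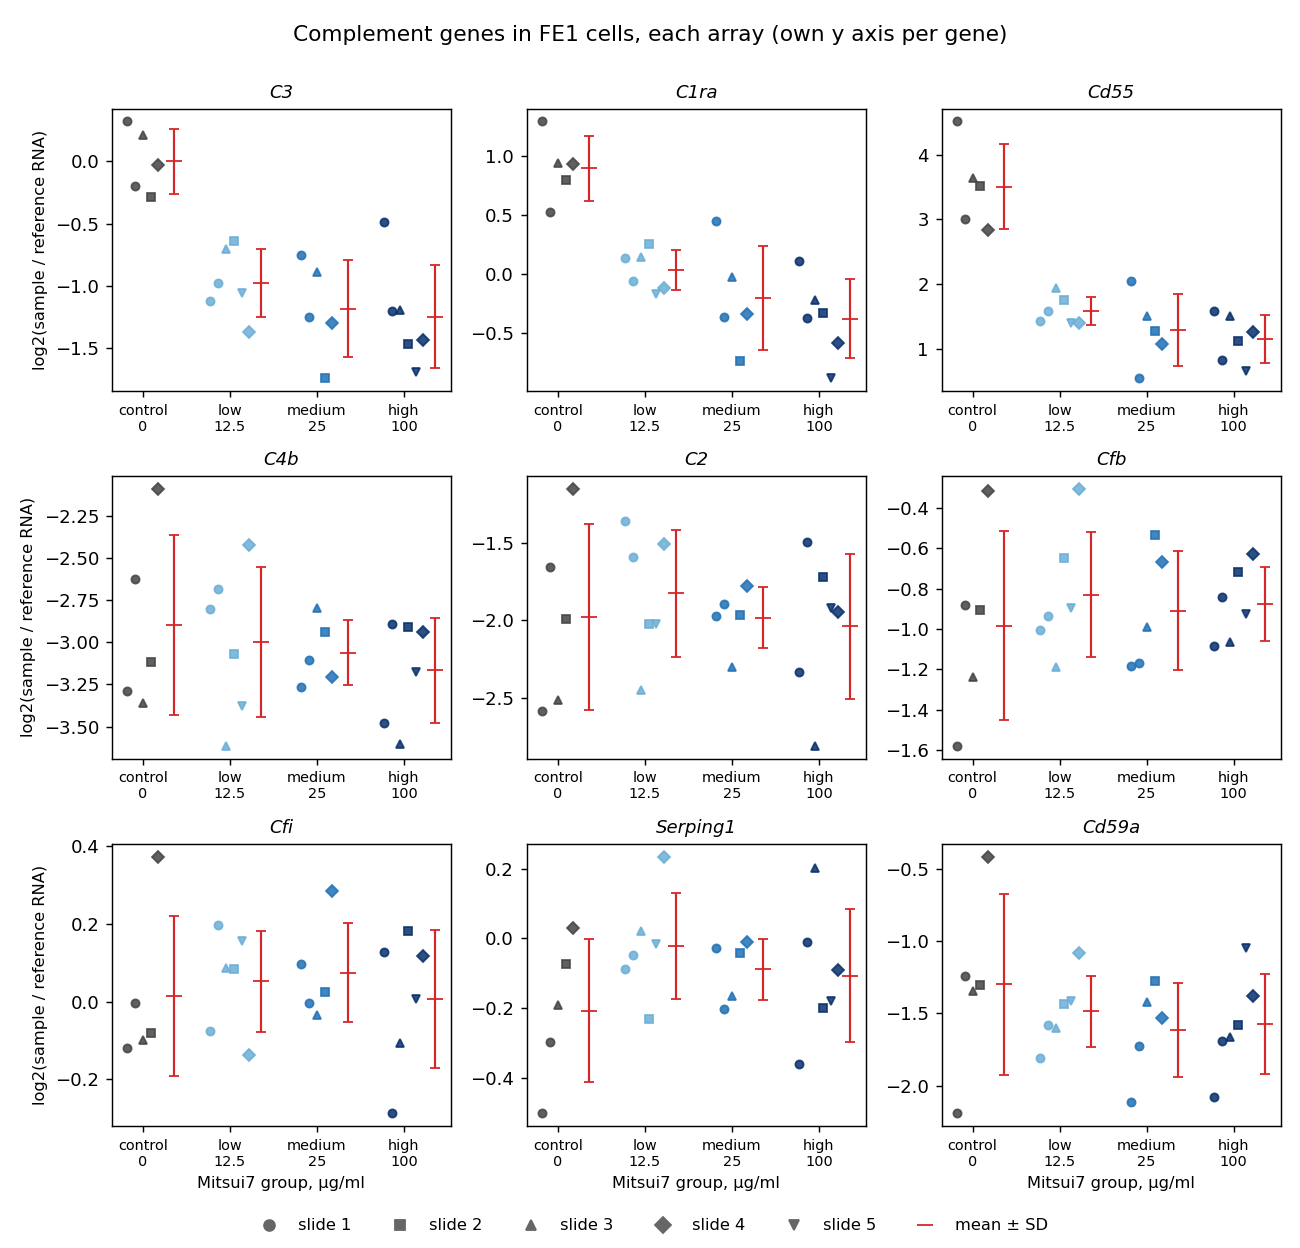
Log2 ratio of FE1 sample to reference RNA on each of 22 arrays for the 9 complement genes, by dose in µg/ml; symbols mark the array slide and red bars the group mean ± SD (n = 5, 6, 5 and 6), and each gene has its own y axis. For C3, C1ra and Cd55 every exposed array lies below every control array, while the groups overlap for the other 6 genes, of which Cfb and Cfi are never well above background.

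C1ra encodes the protease that starts the classical pathway by activating itself and then C1s. Its log2 ratios in control arrays 1 to 5 were 1.29, 0.53, 0.93, 0.80 and 0.93 (mean 0.89 ± 0.28, SD, n = 5). The 6 low dose arrays ran from -0.17 through a median of 0.04 to 0.25. The 5 medium dose arrays had 0.45, -0.36, -0.03, -0.74 and -0.34. The 6 high dose arrays ran from -0.88 through a median of -0.35 to 0.11. All 17 exposed arrays lay below the lowest control array, with the 1st medium dose array closest to it. Groups lying wholly below control were found for 2.56%, 4.87% and 5.72% of detected genes at the 3 doses. The slide-adjusted log2 change from control was -0.79 at the low dose (SE 0.17, limma adjusted p = 0.00805, 1.73-fold), -1.10 at the medium dose (SE 0.17, adjusted p = 0.000329, 2.14-fold) and -1.21 at the high dose (SE 0.17, adjusted p = 5.26e-05, 2.31-fold). Within the 4 slides that held controls, the change ran from -1.05 to -0.54 at the low dose, from -1.54 to -0.87 at the medium dose and from -1.51 to -1.04 at the high dose. The low dose call was lost without slide 3 (-0.80, adjusted p = 0.0616) or slide 4 (-0.73, adjusted p = 0.0559), and with median centring in place of loess the low and medium dose calls were lost (adjusted p = 0.212 and 0.163). A dimmer second C1ra probe gave changes of -0.81, -1.25 and -1.34, called at each dose, although its unadjusted log2 ratios at the low dose lay below every control on 3 of 6 arrays.

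C3 is the central component of the cascade, and its cleavage product tags surfaces. Control arrays 1 to 5 had log2 ratios of 0.32, -0.20, 0.21, -0.29 and -0.03 (mean 0.0027 ± 0.26, SD, n = 5), so untreated FE1 cells gave about the same C3 signal as the reference pool. The 6 low dose arrays ran from -1.37 through a median of -1.01 to -0.63. The 5 medium dose arrays had -0.75, -1.24, -0.88, -1.74 and -1.30. The 6 high dose arrays ran from -1.69 through a median of -1.32 to -0.49. No exposed array reached a control array, and the highest exposed value came from high dose replicate 1. The slide-adjusted log2 change was -0.92 at the low dose (SE 0.17, limma adjusted p = 0.00317, 1.90-fold), -1.19 at the medium dose (SE 0.18, adjusted p = 0.000222, 2.27-fold) and -1.20 at the high dose (SE 0.17, adjusted p = 8.95e-05, 2.29-fold). The 95% intervals were -1.29 to -0.56, -1.56 to -0.82 and -1.56 to -0.83. Within slides the change ran from -1.34 to -0.35 at the low dose, from -1.45 to -1.06 at the medium dose and from -1.41 to -0.90 at the high dose. With median centring in place of loess the direction held but no dose was called (adjusted p = 0.203, 0.205 and 0.0542). The second C3 probe fell by 1.08, 1.05 and 1.14 on the log2 scale and was called at each dose. C3 was bright, with Cy5 signals between 30.5 and 737 times the detection level of the array, so its ratios were far from the floor.

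Cd55 encodes decay-accelerating factor, a membrane-anchored inhibitor that protects the host cell's own surface. It had the largest change of the 7 measured genes at each dose. Control arrays 1 to 5 had log2 ratios of 4.51, 3.01, 3.63, 3.52 and 2.83 (mean 3.501 ± 0.66, SD, n = 5), so control FE1 cells gave a higher signal than the reference pool. The 6 low dose arrays ran from 1.40 through a median of 1.51 to 1.94. The 5 medium dose arrays had 2.06, 0.55, 1.51, 1.28 and 1.08. The 6 high dose arrays ran from 0.66 through a median of 1.19 to 1.59. Every exposed array was below every control array, and every exposed array stayed above the reference pool. The slide-adjusted log2 change was -1.85 at the low dose (SE 0.25, limma adjusted p = 0.000152, 3.60-fold), -2.21 at the medium dose (SE 0.26, adjusted p = 1.55e-05, 4.61-fold) and -2.27 at the high dose (SE 0.25, adjusted p = 4.25e-06, 4.83-fold). The intervals of the fold were 2.49 to 5.18, 3.18 to 6.70 and 3.35 to 6.96. Within slides the change ran from -2.25 to -1.43, from -2.46 to -1.75 and from -2.55 to -1.57 at the 3 doses. On exposed arrays the Cd55 signal was 2.10 to 7.92 times the detection level, and since background was not subtracted the fold may be understated there. Of the alternatives, normexp background correction with an offset of 50 gave smaller falls (-1.69, -2.015 and -2.07). The scanner's log ratio gave larger ones (-1.98, -2.36 and -2.49).

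**Figure D2:**
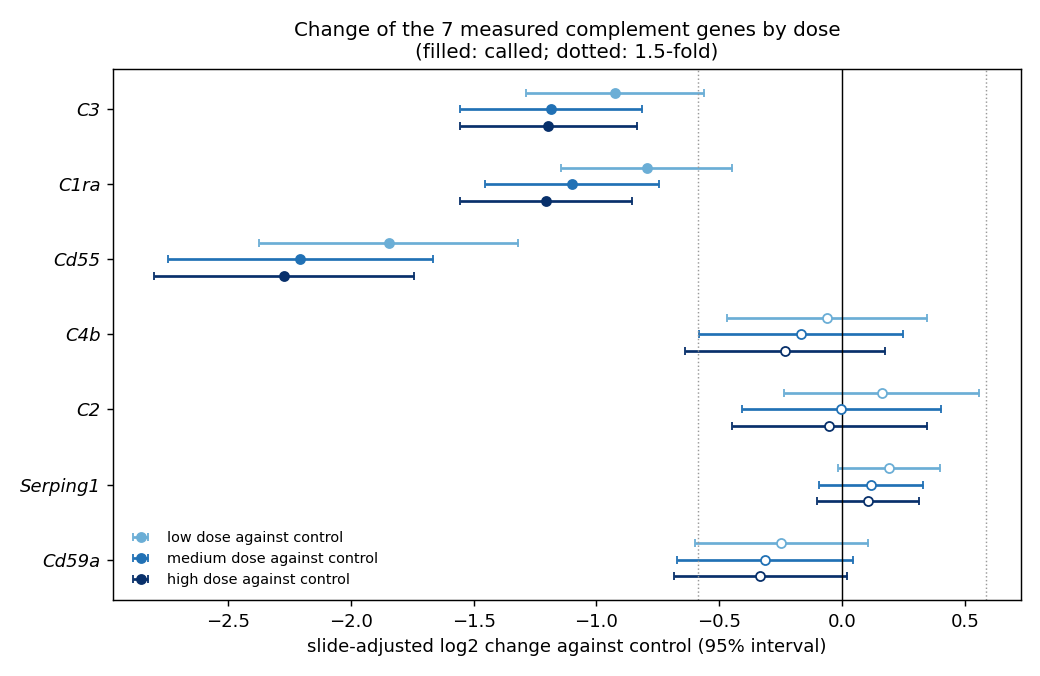
Slide-adjusted log2 change against control with its 95% interval (limma, n = 5 controls against 6 low, 5 medium and 6 high dose arrays) for the 7 complement genes detected on at least 4 arrays of a group; filled points were called and dotted lines mark 1.5-fold. C3, C1ra and Cd55 are called at each dose, and the intervals of C4b, C2, Serping1 and Cd59a all include 0.

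The other classical pathway substrates, C4b and C2, were measured close to the detection level. C4b, the mouse gene for the C4 protein cleaved by C1s, had a mean log2 ratio of -2.89 ± 0.53 (SD, n = 5) in controls, with values of -3.29, -2.62, -3.36, -3.12 and -2.09. Low dose arrays ran from -3.61 to -2.42, medium dose arrays from -3.27 to -2.80 and high dose arrays from -3.60 to -2.89, all inside or overlapping the control range. Its log2 change was -0.06 at the low dose (interval -0.47 to 0.35, limma adjusted p = 0.936), -0.17 at the medium dose (-0.58 to 0.25, adjusted p = 0.802) and -0.23 at the high dose (-0.64 to 0.17, adjusted p = 0.654). The C4b probe was well above background on 3 of 5 control, 4 of 6 low, 4 of 5 medium and 5 of 6 high dose arrays. C2, the protease of the C3-cleaving enzyme, had control values of -2.58, -1.65, -2.51, -1.99 and -1.15, and exposed arrays between -2.81 and -1.36. Its log2 change was 0.16 (interval -0.24 to 0.56, adjusted p = 0.794), -0.0028 (-0.41 to 0.40, adjusted p = 0.998) and -0.05 (-0.45 to 0.35, adjusted p = 0.951) at the 3 doses. At the high dose the C4b interval reached past a 1.5-fold fall, so a fall of that size lay within the precision of these arrays.

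Of the remaining regulators, Cd59a and Serping1 were measured and Cfi was not. Cd59a had control values of -2.19, -1.24, -1.34, -1.31 and -0.42, a spread of 0.63 (SD, n = 5) around -1.30. Low dose arrays ran from -1.81 to -1.08, medium dose arrays from -2.12 to -1.27 and high dose arrays from -2.08 to -1.04, so all 17 exposed arrays lay within the control range. Its log2 change was -0.25 (interval -0.60 to 0.11, limma adjusted p = 0.581), -0.31 (-0.67 to 0.05, adjusted p = 0.426) and -0.33 (-0.68 to 0.02, adjusted p = 0.322). All 3 intervals of Cd59a reached past a 1.5-fold fall. Serping1 had control values of -0.50, -0.30, -0.19, -0.07 and 0.03, and exposed arrays ran from -0.36 to 0.23. Its log2 change was 0.19 (interval -0.01 to 0.40, adjusted p = 0.408), 0.12 (-0.09 to 0.33, adjusted p = 0.693) and 0.11 (-0.10 to 0.31, adjusted p = 0.70), with signal well above background on 1 of 5 control and 13 of 17 exposed arrays. A second Serping1 probe was detected on 0 of 22 arrays. Because these probes were dim and background was not subtracted, a change in the transcript would be compressed in the ratio.

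Cfb was detected on 9 of 22 arrays and well above background on 0, and Cfi was detected on 0 of 22. No fold is given for these genes, because both the control and the exposed groups lay at the floor of the array. The Cy5 signal of Cfb ran from 67 to 90 intensity units over all arrays and that of Cfi from 60 to 81. The plot of Cy5 signal over detection level sets the 9 genes against that floor.

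**Figure D3:**
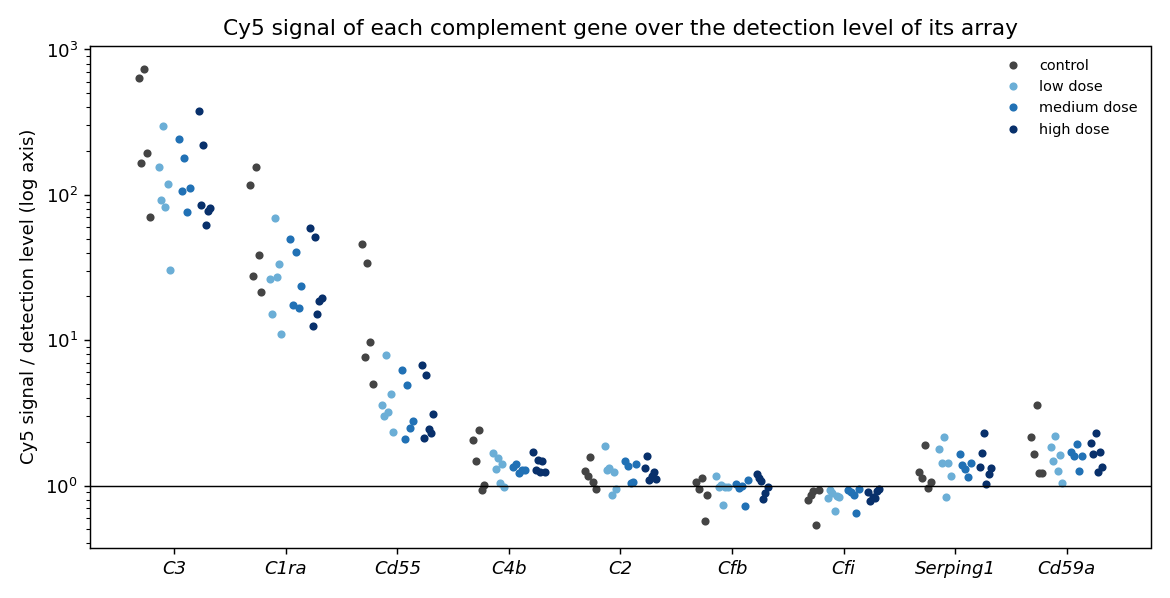
Cy5 signal of each complement gene divided by the detection level of the same array (log axis), 1 point per array coloured by group; the line at 1 is the detection level, and heights are not comparable between genes because probes differ in brightness. C3, C1ra and Cd55 lie above the line on all 22 arrays, C4b, C2, Serping1 and Cd59a lie around or just above it, and Cfi lies below it on every array.

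The doses were also compared directly, as a test of whether more nanotube gave a larger fall. None of the 7 detected genes was called in any of the 3 comparisons between doses (0 by limma at adjusted p 0.05, and 1, C1ra, at an unadjusted p under 0.05, in high against low dose). At that unadjusted p, 14.9% of all detected genes passed between high and low dose, and 0.457% were called, with 0% called between high and medium dose (769 genes at an unadjusted p under 0.05) and between medium and low dose (1209 genes). C1ra was lower at the high than at the low dose by 0.41 on the log2 scale, with an interval of -0.74 to -0.09, an unadjusted limma p of 0.0159 and an adjusted p of 0.426. Its second probe gave a difference of -0.52 (adjusted p = 0.209). Cd55 differed by -0.43 between high and low dose (interval -0.92 to 0.07, adjusted p = 0.676) and C3 by -0.27 (-0.61 to 0.07, adjusted p = 0.706). Between high and medium dose the differences were -0.11 for C1ra (interval -0.45 to 0.24), -0.07 for Cd55 (-0.59 to 0.46) and -0.01 for C3 (-0.37 to 0.35), each with an adjusted p of 0.999. An 8-fold range of nominal dose thus gave falls that were not separated by these tests, and the intervals leave room for further falls at the high dose.

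The 3 falls stayed in place when the 2 arrays that correlated below 0 with their own group were left out or exchanged. Without low dose replicate 1 and medium dose replicate 2, the log2 change at the low dose was -0.84 for C3 (limma adjusted p = 0.0133), -0.77 for C1ra (adjusted p = 0.0224) and -1.76 for Cd55 (adjusted p = 0.000265). At the medium dose it was then -1.13, -1.03 and -1.98, all called. With the labels of both arrays exchanged, the 3 genes were again called at each dose, with a low dose change of -0.95 for C3, -0.89 for C1ra and -2.01 for Cd55.

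The 3 genes that fell also moved together from array to array. With slide effects removed, the Pearson correlation over 22 arrays was 0.960 between C3 and C1ra, 0.913 between C3 and Cd55 and 0.928 between C1ra and Cd55. With group means also removed it was 0.839, 0.543 and 0.673, so part of the shared variation lay within groups. These values are descriptions, since the genes share arrays, labelling and normalisation. C4b correlated at 0.799 with C2 and at 0.825 with Cd59a within groups. Cfb, which was never well above background, correlated at 0.880 with Cd59a within groups. Several correlations within groups between falling and dim genes were negative. Those of Cd55 were -0.796 with Cd59a, -0.749 with C2, -0.655 with Cfb and -0.56 with C4b, against 0.047 with Cfi. With Cd59a, C3 correlated at -0.442 and C1ra at -0.562 within groups. What dim signal near the array floor adds to these correlations was not tested. Leaving out the 9 genes themselves, the genes most like C3 in slide-adjusted ratio over the 22 arrays, among 8897 compared, were Pdlim4 (r = 0.954), Cdon (0.948), Gamt (0.947), Ahr (0.941) and Ptpn13 (0.936). Ahr, the aryl hydrocarbon receptor, had log2 changes of -0.93, -1.35 and -1.65 at the 3 doses.

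**Figure D4:**
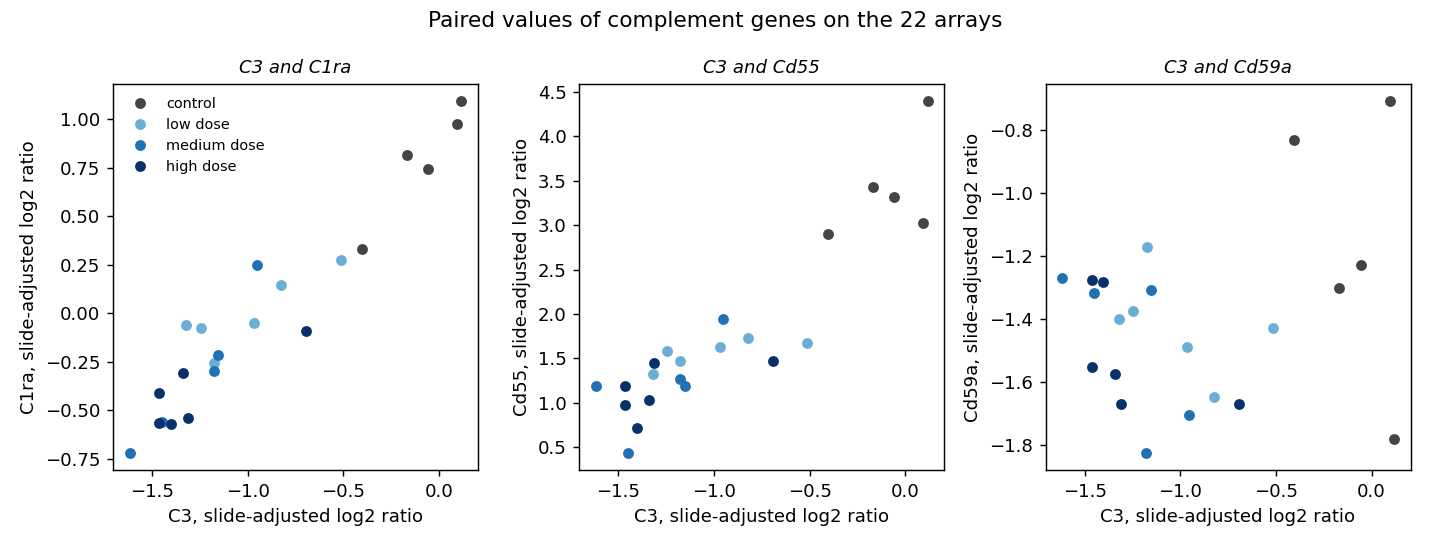
Slide-adjusted log2 ratios of C3 (x axis) against C1ra, Cd55 and Cd59a (y axes) on the 22 arrays, 1 point per array coloured by group. C3 and C1ra (r = 0.960) and C3 and Cd55 (r = 0.913) run together with control arrays at the upper right, while C3 and Cd59a do not (r = 0.237). With group means removed, r was 0.839, 0.543 and -0.442 in the same order.

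The rest of the system was read from a list of 47 further complement genes, of which 45 were on the array and 13 were detected on all 22 arrays. This list, too, was chosen with earlier results of these data known. At the low, medium and high dose, 20, 20 and 23 passed detection, 7, 9 and 8 were called lower and 0, 0 and 1 higher, where 3.06%, 4.68% and 6.45% of all detected genes were called lower. These counts take C1rb, C1s2 and Cd55b as separate genes, although their probes may share signal with C1ra, C1s1 and Cd55. The median log2 change of the further genes detected was -0.28, -0.43 and -0.21. With low dose replicate 1 and medium dose replicate 2 left out, 5, 8 and 8 were called lower.

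Partners of C1ra in the C1 complex fell. C1s1 and C1s2, the genes of the protease that C1r activates, had log2 changes of -1.19, -1.503 and -1.80 (SE 0.16 at the high dose, limma adjusted p = 6.58e-07) and of -1.01, -1.40 and -1.57 (SE 0.14, adjusted p = 3.3e-07). C1rb, a close copy of C1ra, had changes of -1.02, -1.01 and -1.28 (SE 0.17, adjusted p = 4.5e-05), and the related C1rl had -0.70, -0.88 and -0.85 (SE 0.10, adjusted p = 1.1e-05). All 4 were called lower at each dose. C1rb was not called at the low and medium dose without a slide term (adjusted p = 0.143 and 0.213) or at the low dose with the scanner's log ratio (adjusted p = 0.0575). C1rl fell under 1.5-fold at the low dose with the deposited ratios (-0.57) and passes no 2-fold threshold at any dose. In RefSeq these genes and C1ra follow each other without another protein-coding gene between them, in the order C1rl, C1ra, C1s1, C1rb and C1s2 on chromosome 6. Probes of the near-identical pairs C1ra and C1rb, and C1s1 and C1s2, may share signal. A second C1s2 probe was detected on 0 of 22 arrays. Subunits of C1q, the part of C1 that binds targets, were not called: C1qb was detected on 20 arrays with changes between -0.07 and -0.04, while C1qa was detected on 1 array and C1qc on 0.

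Other regulators and further genes of the list were called lower as well, not all of them at each dose. C4bp, encoding the soluble C4b-binding protein, had log2 changes of -1.91, -2.09 and -2.23 (SE 0.30 at the high dose, limma adjusted p = 3.21e-05) and was detected on 18 of 22 arrays. Its median Cy5 signal was 90.25, where the detection levels of the arrays ran from 74.3 to 119. The control log2 ratios of C4bp had an SD of 1.24 (n = 5). Its low and medium dose calls were lost with median centring (-1.30 and -1.48, adjusted p = 0.158 and 0.0793) and its low dose call without slide 1 (-1.60, adjusted p = 0.0675), and its high dose change ran from -3.57 to -1.59 over the alternatives, called in each. Clu, encoding clusterin, an inhibitor of the membrane attack complex, had changes of -0.63, -0.76 and -0.91 (SE 0.16, adjusted p = 0.000527), called at each dose. Its low dose call was lost when any of several single arrays was left out, and its medium dose call with median centring (adjusted p = 0.39) or without slide 1 (adjusted p = 0.192). Cd55b, a copy next to Cd55 on chromosome 1, had changes of -0.95, -0.82 and -0.89 (SE 0.22, adjusted p = 0.0146). Its high dose call was lost without control replicate 1 (adjusted p = 0.0516) or control replicate 3 (adjusted p = 0.078), and with the scanner's log ratio (adjusted p = 0.138), with median centring (0.0898) or without slide 1 or slide 3. Its second probe had changes of -0.23, -0.19 and 0.06 that were not called, and its brighter probe may share signal with Cd55. Colec12, a scavenger receptor of the collectin group, had changes of -0.52, which was not called (adjusted p = 0.0788), -0.66 and -1.03 (SE 0.16, adjusted p = 0.000169). Its medium dose call was lost with median centring (adjusted p = 0.572), the scanner's log ratio (0.0958) or without slide 2, 3 or 4. C8g, a subunit of the membrane attack complex, was called lower at the medium dose with a change of -0.76 (adjusted p = 0.000924) and not at the low (-0.34, adjusted p = 0.183) or the high dose (-0.51, adjusted p = 0.013, under 1.5-fold). A second C8g probe, detected on 21 of 22 arrays, had changes of -0.15, -0.34 and -0.28 that were not called.

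Cr1l, the mouse gene for the regulator Crry, rose at the high dose. Its log2 changes were 0.31 (adjusted p = 0.363), 0.51 (adjusted p = 0.067) and 0.69 (SE 0.15, limma adjusted p = 0.00573). The high dose change without control replicate 5 was 0.58, just under 1.5-fold, and was no longer called. It was also not called without a slide term (adjusted p = 0.177), with median centring (0.412) or without slide 4 (0.0631). Cd46 was detected on 0 of 22 arrays. The anaphylatoxin receptors were not called, with C5ar2 at 0.44, 0.45 and 0.40 (adjusted p between 0.0583 and 0.0788) and C3ar1 between -0.34 and -0.13, while C5ar1 was detected on 0 arrays.

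**Figure D5:**
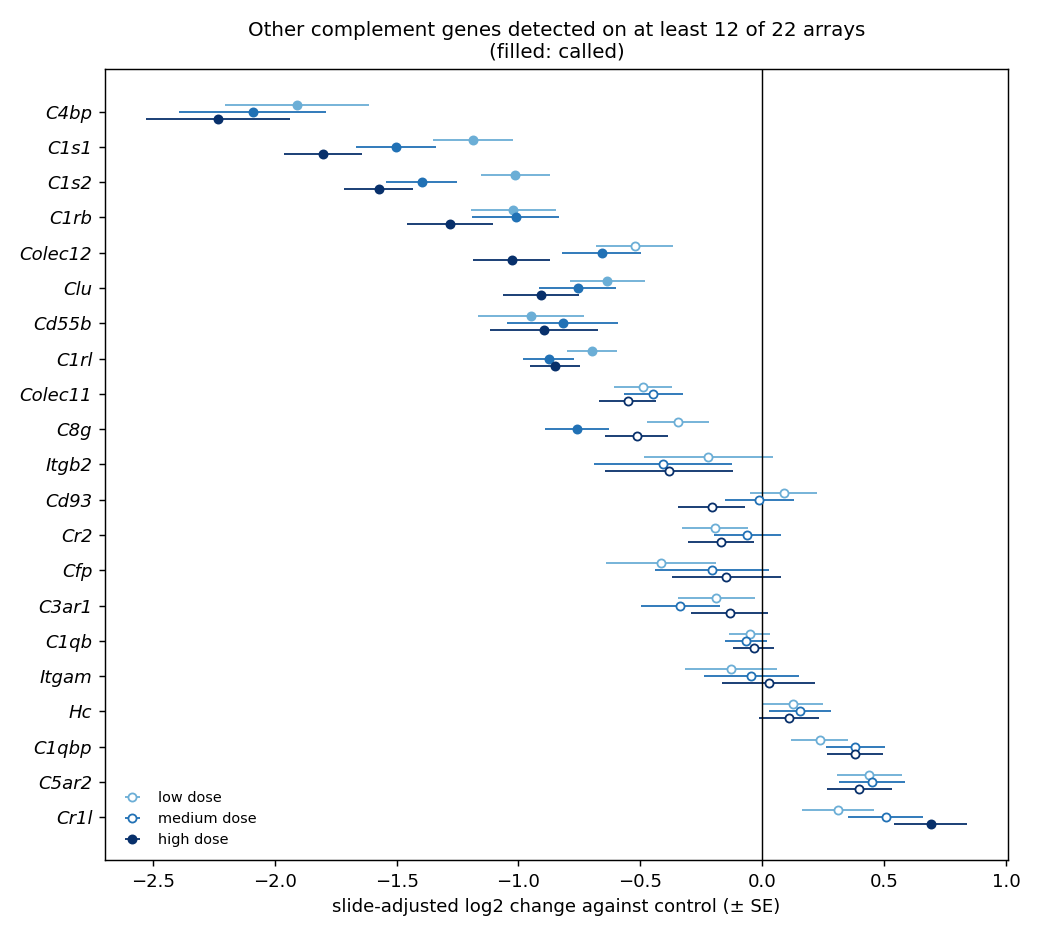
Slide-adjusted log2 change against control ± SE for the 21 further complement genes detected on at least 12 of 22 arrays, at the low, medium and high dose (n = 6, 5 and 6 against 5 controls); filled points were called. C4bp and the C1r and C1s genes lie farthest to the left, and Cr1l at the high dose is the called point to the right of 0.

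Markers of other cells were read beside these falls. Of 7 fibroblast markers, all detected on all 22 arrays, Col1a1, Col1a2, Col3a1, Pdgfra and Dcn (5 genes) were called lower at each dose, and Thy1 and Vim were not. The median change of the 7 was -0.83, -1.24 and -1.52 at the 3 doses. Their summed Cy5 signal, which also follows the brightness of an array, ran from 129227 to 668833 in controls, 93700.0 to 384999.5 at the low, 172841 to 302480.25 at the medium and 120833.5 to 327326.25 at the high dose. Of 8 epithelial markers, Krt7 was called lower at the medium (-0.79) and high dose (-0.85) and no marker was called at the low dose. Of 5 alveolar type I markers, Hopx alone was called, lower at each dose (-1.55, -1.62 and -2.19). Pdpn, also of type I, had changes of 0.22, 0.48 and 0.31 that were not called. Of 7 alveolar type II markers, Lamp3 alone was called, higher at the medium (0.75) and high dose (0.90). Abca3, also of type II, had changes of -0.58, -0.37 and -0.63 that were not called. Of 6 leukocyte markers and 4 endothelial markers none was called at any dose, and the endothelial marker Tek was detected on 0 arrays. The part of these markers in the complement results was not tested.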

How the data were processed

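Gene expression was measured in 22 FE1 samples on 2-colour Agilent arrays, grouped by the titles in the labels. Per the file headers, the deposited scanner files hold the median Cy5 and Cy3 intensity of each spot, extracted with Feature Extraction 10.7.3.1, and a log10 ratio made by that software (25.9% of its values were exactly 0). The authors also deposited processed log2 ratios, whose normalisation is not given in the sources used here; both ratios served as alternatives. Following the methods of the study, background was not subtracted. The methods name no step that normalises within an array; here loess (limma 3.58.1, R 4.3.3) was applied array by array to log2(Cy5/Cy3) of the median intensity. The 3671 control spots on an array were dropped, outlier marks (0.401% to 6.22% of spots) became missing values, and spots of a probe were combined by their median. Group and slide were fitted over all 22 arrays on 5 slides, with Benjamini-Hochberg adjustment over 55681 probes. MAANOVA, the method the study names, was replaced by limma's moderated test.

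Probes were named by accession through RefSeq (26413 named); the arrays were annotated on another genome build, so promoter coordinates alone are given. The probe with the highest mean Cy5 signal stood for a gene. The slide was read from the array barcode. All 15 pairs of same-numbered arrays correlated above 0.1 (0.225 to 0.856), but these mostly shared a slide, and after slide adjustment the correlations ran from -0.681 to 0.539. The methods name 3 separate exposure experiments, fewer than the 5 or 6 arrays of a group, so some arrays of a group share an experiment. The sources do not say which, and p-values measure the spread between arrays, taken as replicates, and may be too small. Without a dye swap, a probe's dye bias stays in its log2 ratio and cancels in differences between groups. The number of arrays limits the precision. The scripts were tested on simulated data. The 9 genes, the further complement list and the marker lists were chosen with earlier results of these data known. Further complement genes are named with values where called at the high dose, to at most 10, and the rest were chosen after their values were seen. Other listed genes enter the counts, and 1 complement gene is not reported here and was kept out of the list. Genes most like C3 are the 5 of highest correlation outside the 9.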

Additional observations from a re-analysis of the deposited data

Results flagged for a closer look

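Cfi in control replicate 5 had a log2 ratio of 0.373, while the other 4 control arrays lay between -0.119 and -0.0037. The gap took up 0.765 of the range of the group, above Dixon's 95% limit for 5 arrays, which chance passes in about 1 in 20 groups. The Cfi probe was detected on 0 of 22 arrays, so the value describes signal at the floor of the array.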

How the results depend on the processing

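Under 45 alternatives (background correction, normalisation, slide term, detection, threshold, deposited ratios, single arrays or slides left out), the falls of C3, C1ra and Cd55 kept their direction, and Cd55 was called at each dose in every one. The calls of C3 and C1ra depended on the setting as follows. Without slide 3 or slide 4, C1ra was not called at the low dose. A 2-fold threshold left 1 of the 9 genes called at the low dose. Median centring in place of loess left 1 called at the low and 1 at the medium dose, with changes of -1.08, -1.08 and -1.25 for C3 (adjusted p = 0.203, 0.205 and 0.0542) and of -0.94 and -1.01 for C1ra at the low and medium dose (adjusted p = 0.212 and 0.163); the cause was not tested. Leaving out any 1 array kept 3 genes called at each dose, and so did slide as a random effect. With a replicate block fitted and no slide term, the high dose change was -1.19 for C3, -1.24 for C1ra and -2.33 for Cd55, and this pairing changed no call of the 9 genes or of the 9 further genes called at the high dose.

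The number of further complement genes called lower at the low dose, 7, was 4 with median centring, the scanner's log ratio, no slide term, a 2-fold threshold or without slide 1, and 5 to 7 with single arrays left out. At the medium dose, 9 became 5 with median centring and 4 with a 2-fold threshold, and ran from 7 to 9 with single arrays left out. At the high dose, 8 became 5 with a 2-fold threshold and ran from 7 to 10 with single arrays left out. Single arrays ended these calls: for Cd55b at the low dose control replicates 1 and 3 and low dose replicates 1 and 3 (-0.90 to -0.76); for Clu at the low dose control replicates 1 to 4 and low dose replicates 1 and 4 (-0.65 to -0.53); for Colec12 at the medium dose control replicate 1 (-0.54) and medium dose replicate 3 (-0.61). The Cd55b call at the medium dose was lost in most fits without a single array. Cr1l was called at the medium dose without control replicate 1 (0.66) or medium dose replicate 2 (0.63).

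Changes near 0 turned sign. C2 at the medium dose was 0.15 with the scanner's log ratio, 0.054 with the deposited log2 ratios, 0.15 without slide 4 and 0.10 with the labels of the 2 arrays exchanged. C2 at the high dose was 0.031, 0.080 and 0.13 in the same order under those 3 settings and 0.0059 without slide 3. C2 at the low dose was -0.14 without slide 1. C4b was 0.015 at the low and 0.070 at the medium dose without slide 4. With single arrays left out, C2 ran from -0.031 to 0.32, -0.19 to 0.15 and -0.24 to 0.11 at the 3 doses, and C4b at the low dose from -0.17 to 0.092. Over all probes, 1017, 1691 and 2447 were called at the 3 doses, and between 266 and 1934, 449 and 2974, and 714 and 4501 under the alternatives. Signal over background limits C4b, C2, Serping1 and Cd59a, and leaves Cfb and Cfi without a value. Background subtraction with normexp was run on median signals, and that change and the settings on the 2 arrays and the further list were chosen after seeing the data.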
